A study of Homo sapiens with 4 samples.

Results

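The genes described here carry carbon through glycolysis, gluconeogenesis, the glycogen pathway and the pentose phosphate pathway, or belong to the transcriptional response to low oxygen. They were taken by gene symbol from a list of 43 genes, and 40 of them had a probe set that names 1 gene, out of 12165 genes measured. CA9, PGAM1 and PGD were not analysed here; PGAM1 and PGD are named in the annotation only together with other genes. RNA came from Huh-7, an established human line from a hepatocellular carcinoma, and was hybridised to 4 Affymetrix arrays. On 2 arrays the cells were untreated and on the other 2 they had received TGF-beta, a secreted regulator of growth and differentiation that acts through SMAD transcription factors. The labels have all cells grown with 10% heat-inactivated serum under 5% CO2 and harvested at 48 h from confluent dishes, and they give no dose of TGF-beta. Arrays are numbered 1 and 2 within a group, and no label says that these are separate cultures. A p-value here therefore covers the spread between arrays, which can be technical.

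Glycolysis splits glucose into pyruvate, and its rate is set mainly at hexokinase, phosphofructokinase and pyruvate kinase. The bifunctional PFKFB enzymes make and break fructose 2,6-bisphosphate, which activates phosphofructokinase and inhibits fructose 1,6-bisphosphatase, the opposing step of gluconeogenesis. The liver stores glucose as glycogen, releases it through glycogen phosphorylase and glucose 6-phosphatase, and uses its own isoenzymes for many of these steps, whereas tumour cells often use the forms found in other tissues. The pentose phosphate pathway branches off at glucose 6-phosphate and yields NADPH and ribose. HIF1A is the oxygen-regulated subunit of a transcription factor that binds the core motif ACGTG or GCGTG near genes of glycolysis, vessel growth and mitochondrial removal.

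Levels are given as log2 of the deposited probe set intensity, taken from the brightest probe set of each gene, and a fold change is TGF-beta over untreated. The fit across all genes was limma's, with Benjamini-Hochberg adjustment over 12165 genes, and a gene counts as called at an adjusted p under 0.05. Median intensities of the 4 arrays lay between 50.1 and 51.0. Hepatocyte markers were present, with 8 of 9 measured at log2 intensities from 10.09 to 15.13, among them ALB (albumin) and AFP (alpha-fetoprotein). Of these, APOA1 rose by 0.74 ± 0.11 (SE, adjusted p = 0.0378) and TTR fell by 0.63 ± 0.11 (adjusted p = 0.0470). The summed intensity of the list was 16.37 and 16.42 (log2) on the untreated arrays and 16.51 and 16.48 after TGF-beta. The 5 endothelial markers lay at 4.32 to 5.70, and their sums were 7.38 and 7.37 against 7.34 and 7.28. Of 7 fibroblast markers 6 had a mean under 6 and LUM (lumican) was bright at up to 12.83, with sums of 12.87 and 12.76 against 12.78 and 12.88. These sums are nearly all LUM. The log2 fold changes of the 7 had a median of -0.16, with 6 negative and 1 positive, and none was called. Of 5 measured leukocyte markers, PTPRC, CD3E, CD79A and ITGB2 had means under 6 and CD14 rose by 1.0 ± 0.11 (SE, adjusted p = 0.0167), so that the sums of this list were 7.71 and 7.64 against 8.08 and 8.17. The part of any of these lists in the results was not tested. In bulk RNA of this kind, fewer cells with a transcript and less of it per cell cannot be told apart.

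Among the 40 measured genes 1 was called, PFKFB3, which was higher after TGF-beta, and 39 did not pass. This is 2.50% of the genes, against 1.22% of all genes tested in either direction and 0.658% in the higher direction. For lower calls, of which the 40 genes had none, the share of all genes was 0.567%. Before adjustment, 5 of the 40 had p under 0.05 and higher values (PFKFB3, ADM, PYGB, NDRG1 and ENO1), where 9.35% of all genes did. Another 3 had lower values (PCK2, PYGL and HK1), where 8.60% of all genes did. The 8 together are near the background of 18.0%. The arrays of both groups did not overlap in 26 of the 40 genes, 14 higher and 12 lower after TGF-beta. That is 65.0%, against 49.1% of all genes (23.3% higher and 25.9% lower). The median log2 fold change was 0.06, against -0.0062 over all genes, and 24 of 40 values were positive, against 48.6% of all genes. The median absolute value was 0.19, against 0.13 over all genes, and 27.5% of the genes reached 0.3 in either direction, against 17.5%. The sign of that median was not stable. It was -0.02 without the second untreated array and -0.06 over the 22 genes that keep a probe set when those ending in _s_at or _x_at, kinds that can match related transcripts, are left out.

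**Figure D1:**
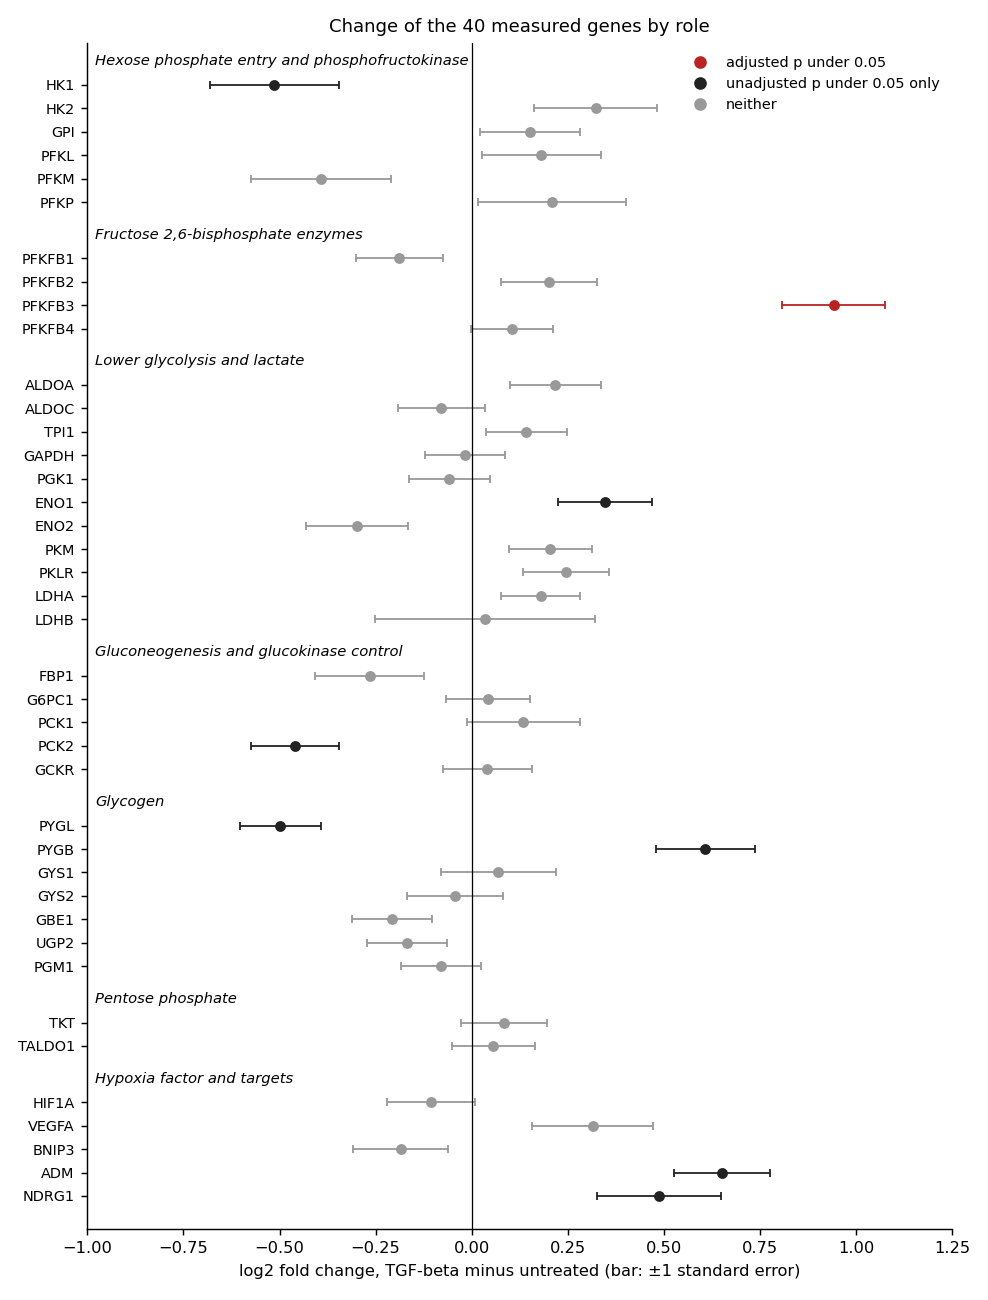
Log2 fold change (TGF-beta minus untreated, horizontal axis) of each of the 40 genes with 1 standard error as the bar, 2 arrays per group, grouped by role. PFKFB3 at 0.94 is the only gene in red, the colour of an adjusted p under 0.05, while PYGL at -0.50 and PYGB at 0.61 lie on opposite sides within the glycogen group.

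Fructose 2,6-bisphosphate is made by a family of 4 enzymes, and PFKFB3, the isoenzyme with the highest ratio of kinase to phosphatase activity, rose 1.92-fold. Its log2 intensities were 6.95 and 7.23 in untreated cells against 8.13 and 7.94 after TGF-beta, which correspond to intensities of 124.0 and 150.0 against 279.2 and 245.8. Both TGF-beta arrays lay above both untreated arrays, by more than the arrays of either group differed from each other. The log2 fold change was 0.94 ± 0.13 (SE, n = 2 per group) with an adjusted p of 0.0330 by limma, rank 58 of all genes by p. The call needed both TGF-beta arrays. Without the first of them the log2 fold change was 0.85 with an adjusted p of 0.281, and without the second 1.03 with an adjusted p of 0.197, where no gene of the whole table passed (1326 and 1563 genes at an unadjusted p under 0.05). PFKFB3 is represented by a single probe set, of the _s_at kind, so no other probe set measures it here.

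The other isoenzymes of that family did not pass. PFKFB2, the heart form, had log2 intensities of 5.20 and 5.34 in untreated cells against 5.59 and 5.35 after TGF-beta, a log2 fold change of 0.20 ± 0.13 (SE), and its dimmer probe set gave -0.16 ± 0.13. PFKFB4, first known from testis, was dim at 4.72 to 4.90 on all arrays, with a log2 fold change of 0.10 ± 0.11. PFKFB1, the liver form, was dim as well, at 4.95 and 4.92 against 4.66 and 4.84, a value of -0.19 ± 0.11. Dim here means a mean log2 intensity below 4.99, the lower quartile of all genes, where a probe set has little room to fall. This held for 9 of the 40 genes: HK1, PFKFB1, PFKFB4, ENO2, PKLR, G6PC1, PCK1, GCKR and GYS2.

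The sequences before the annotated starts of PFKFB3 are shown since it was the called gene, those of ADM and PYGB because they were next in size among the genes that lay higher, and that of PYGL because it is the isoenzyme of PYGB that lay lower. Each is the 250 bases before a RefSeq start in GRCh38.p14, written 5′ to 3′ on the gene's strand, with every match to ACGTG or GCGTG on either strand in capitals (read as CACGT or CACGC where the match is on the opposite strand).
PFKFB3, first start, chr10:6144671-6144920, plus strand: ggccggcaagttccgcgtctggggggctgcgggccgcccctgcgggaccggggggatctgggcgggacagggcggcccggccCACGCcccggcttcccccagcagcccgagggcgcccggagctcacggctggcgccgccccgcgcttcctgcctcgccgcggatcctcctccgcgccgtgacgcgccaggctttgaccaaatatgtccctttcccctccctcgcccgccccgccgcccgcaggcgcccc
PFKFB3, second start, chr10:6202682-6202931, plus strand: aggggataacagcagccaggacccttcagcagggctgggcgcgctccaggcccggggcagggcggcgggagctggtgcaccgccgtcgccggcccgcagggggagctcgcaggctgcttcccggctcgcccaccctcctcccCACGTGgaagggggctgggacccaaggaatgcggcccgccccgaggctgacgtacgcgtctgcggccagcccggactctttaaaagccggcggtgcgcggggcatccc
ADM, chr11:10304823-10305072, plus strand: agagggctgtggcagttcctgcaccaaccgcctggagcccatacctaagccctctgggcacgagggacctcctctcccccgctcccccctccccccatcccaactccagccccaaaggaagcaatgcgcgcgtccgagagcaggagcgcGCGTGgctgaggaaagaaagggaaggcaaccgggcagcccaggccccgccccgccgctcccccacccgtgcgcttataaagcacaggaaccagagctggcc
PYGB, chr20:25247835-25248084, plus strand: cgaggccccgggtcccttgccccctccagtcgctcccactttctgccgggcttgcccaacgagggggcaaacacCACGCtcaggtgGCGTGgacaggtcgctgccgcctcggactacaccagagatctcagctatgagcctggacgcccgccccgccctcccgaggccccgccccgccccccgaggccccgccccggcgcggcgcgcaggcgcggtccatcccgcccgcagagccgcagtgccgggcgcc
PYGL, chr14:50944484-50944733, minus strand: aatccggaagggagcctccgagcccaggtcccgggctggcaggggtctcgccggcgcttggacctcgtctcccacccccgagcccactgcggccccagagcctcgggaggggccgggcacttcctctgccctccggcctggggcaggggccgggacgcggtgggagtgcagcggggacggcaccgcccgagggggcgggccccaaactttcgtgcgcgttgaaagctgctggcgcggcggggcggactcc

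The second start of PFKFB3 has CACGTG, with its first base at position -108 relative to the start, which counts as a match of ACGTG on each strand, since the 2 matches overlap. The first start of PFKFB3 and that of ADM each hold 1 match of GCGTG, PYGB holds 2, and the window of PYGL holds neither motif. Over all 35116 RefSeq windows of the same length, 43.2% hold ACGTG or GCGTG on either strand, 18.5% hold ACGTG, 32.2% hold GCGTG and 6.34% hold CACGTG. Of the listed genes, 38 had at least 1 window, 65 windows in all (none of PFKFB2, PCK1, GYS2, VEGFA or NDRG1), and the shares among these were 55.4%, 35.4%, 35.4% and 12.3%. Windows of a gene can overlap and the printed windows are rich in G and C (68.0% to 79.2%), so these shares are a description of letters with no test. The sequences do not show which start the cells use or whether a factor binds.

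Glucose enters the pathway through hexokinases, and HK1 and HK2 had values of opposite sign without passing. HK2, the inducible form that tumours often express, had log2 intensities of 6.19 and 6.64 in untreated cells against 6.81 and 6.67 after TGF-beta. The groups did not overlap, but the second untreated array lay just below the second TGF-beta array, and the log2 fold change was 0.32 ± 0.16 (SE, adjusted p = 0.345). HK1, the form of most tissues, stood at 4.95 and 5.44 against 4.75 and 4.61, a value of -0.51 ± 0.17 (adjusted p = 0.170). HK1 was dim, and its untreated arrays differed from each other by nearly as much as the group means did. Its value was -0.76 without the first untreated array (adjusted p = 0.0263) and -0.27 without the second (adjusted p = 0.344). The other hexokinases measured, HK3 and HKDC1, were dim and overlapping, with log2 fold changes of -0.18 ± 0.13 and 0.09 ± 0.17.

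GPI, which interconverts glucose 6-phosphate and fructose 6-phosphate, had a log2 fold change of 0.15 ± 0.13 (SE) with overlapping groups. Phosphofructokinase, the main control point of glycolysis, has 3 subunits. PFKL, the liver subunit, gave 0.18 ± 0.15 and PFKP, the platelet subunit, 0.21 ± 0.19, both with overlapping groups. PFKM, the muscle subunit, stood at 5.96 and 6.54 in untreated cells against 5.85 and 5.88 after TGF-beta, a value of -0.39 ± 0.18 (adjusted p = 0.314). The second untreated array stood far above the others, and the value was -0.68 without the first untreated array (adjusted p = 0.0347) and -0.10 without the second (adjusted p = 0.767). The dimmer probe set of PFKL gave a larger value than the one used, 0.42 ± 0.11 (SE, adjusted p = 0.125 over all probe sets).

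Enzymes from aldolase to lactate dehydrogenase had small values, and 0 of 11 measured were called by limma (1 at an unadjusted p under 0.05). The shares of all genes were 1.22% and 18.0%. Of the 11, 7 were positive, where 48.6% of all genes were, and the median was 0.14. ENO1, the main enolase, had the smallest p, with log2 intensities of 12.65 and 12.46 in untreated cells against 12.98 and 12.82 after TGF-beta. Both TGF-beta arrays lay higher, the log2 fold change was 0.35 ± 0.12 (SE, adjusted p = 0.198), and the other probe set gave 0.23 ± 0.10. ENO2, the neuronal enolase, was dim and stood at -0.30 ± 0.13.

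ALDOA, the aldolase of muscle and most tumours, stood at 13.20 and 13.06 against 13.44 and 13.26, a log2 fold change of 0.22 ± 0.12 (SE) that its other probe set matched (0.22). ALDOC, the brain aldolase, gave -0.08 ± 0.11. TPI1, triosephosphate isomerase, gave 0.14 ± 0.10 with both TGF-beta arrays higher. Its dimmest probe set gave 0.46 ± 0.10 (adjusted p = 0.0889 over all probe sets), so the probe sets of TPI1 differed in size but not in direction. PKM, the pyruvate kinase of most tissues and tumours, gave 0.20 ± 0.11, and PKLR, the liver and red cell form, gave 0.24 ± 0.11 from a dim level. The dimmer probe sets of PKM gave -0.30 ± 0.12 and -0.10 ± 0.10, against the direction of the bright one, so no direction is given for PKM. Their mean log2 intensities were 5.89 and 4.47, against 10.66 for the bright one, which alone enters the counts by sign.

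LDHA, the lactate dehydrogenase subunit that favours the making of lactate, had log2 intensities of 14.16 and 14.16 in untreated cells against 14.35 and 14.34 after TGF-beta. Arrays of a group were nearly equal and the groups stood apart by 0.18 ± 0.10 (SE), with an adjusted p of 0.419. With an intensity trend in limma's prior, the adjusted p of LDHA was 0.0311. LDHB, the other subunit, had the largest standard error of the 40 genes, at 6.04 and 5.01 in untreated cells against 5.54 and 5.57, a value of 0.03 ± 0.29. GAPDH and PGK1, which carry out consecutive steps and are often used as reference genes, gave -0.02 ± 0.10 and -0.06 ± 0.10. For GAPDH the 3 probe sets ranged from -0.02 to 0.06, and for PGK1 the 4 probe sets ranged from -0.25 to -0.05. GAPDH and LDHA lay near the top of the intensity range (highest 15.25), where differences can be compressed, which was not tested. Near-identical pseudogenes exist for several of these genes, and probe sets may share signal with them.

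**Figure D2:**
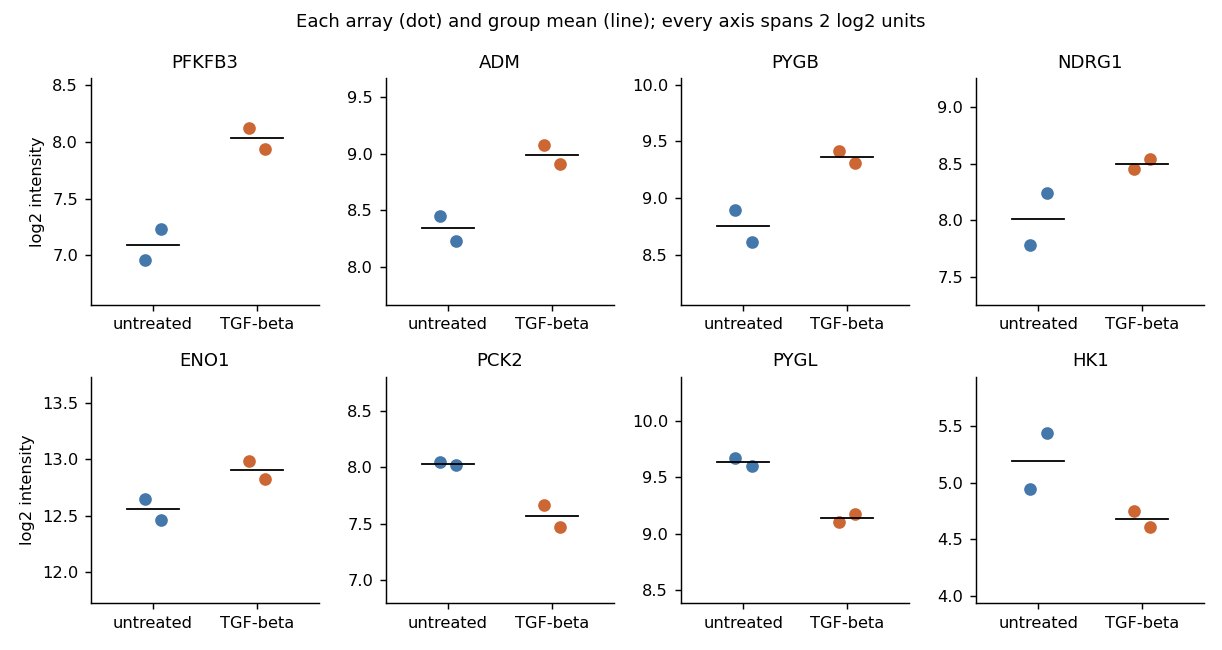
Log2 intensity of each array (dots) and the group mean (lines) for the 8 genes with an unadjusted p under 0.05, untreated in blue and TGF-beta in orange; every vertical axis spans the same length. The groups are far apart for PFKFB3, ADM, PYGB, PCK2 and PYGL, while the untreated arrays of NDRG1 (7.78 and 8.25) and HK1 (4.95 and 5.44) are spread.

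Gluconeogenesis, the making of glucose from lactate and amino acids, had 0 calls among 5 genes by limma (1 at an unadjusted p under 0.05). For all genes these shares were 1.22% and 18.0%. PCK2, the mitochondrial phosphoenolpyruvate carboxykinase, stood at 8.05 and 8.02 in untreated cells against 7.67 and 7.48 after TGF-beta. Both TGF-beta arrays were lower, and the log2 fold change was -0.46 ± 0.11 (SE, adjusted p = 0.0942). PCK1, the cytosolic form that fasting induces in liver, was dim and overlapping (0.13 ± 0.15). FBP1, fructose 1,6-bisphosphatase, had log2 intensities of 6.10 and 5.75 against 5.59 and 5.74, which left almost no gap between the groups, and a value of -0.27 ± 0.14. G6PC1, the catalytic subunit of glucose 6-phosphatase, and GCKR, the regulator of glucokinase, were dim on all arrays and gave 0.04 ± 0.11 and 0.04 ± 0.12. Their levels say little about whether either transcript moved.

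In the glycogen pathway the brain and liver phosphorylases, which release glucose 1-phosphate from glycogen, had values of opposite sign that missed the threshold. PYGB, the brain form, had log2 intensities of 8.89 and 8.61 in untreated cells against 9.42 and 9.31 after TGF-beta. PYGL, the liver form, had 9.68 and 9.60 against 9.10 and 9.18. The groups did not overlap for either gene, with a log2 fold change of 0.61 ± 0.13 (SE, adjusted p = 0.0674) for PYGB and -0.50 ± 0.11 (adjusted p = 0.0678) for PYGL, so neither was called. With an intensity trend in the prior both passed, at adjusted p of 0.0227 and 0.0306. PYGM, the muscle form, was dim on all arrays with overlapping groups, and its value was -0.0085 ± 0.11.

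The enzymes that build glycogen had smaller values. UGP2, which makes UDP-glucose, stood at 13.12 and 13.13 in untreated cells against 12.93 and 12.99, a log2 fold change of -0.17 ± 0.10 (SE). GBE1, the branching enzyme, stood at 8.70 and 8.63 against 8.47 and 8.44 (-0.21 ± 0.10). PGM1, which links glucose 1-phosphate with glucose 6-phosphate, gave -0.08 ± 0.10. In all 3 genes both TGF-beta arrays lay below both untreated arrays, as in 25.9% of all genes, and none passed. For PGM1 the gap was narrow (9.55 and 9.55 against 9.50 and 9.44). The glycogen synthases GYS1 (muscle form, 0.07 ± 0.15) and GYS2 (liver form, dim, -0.04 ± 0.13) had overlapping groups. Of the 7 glycogen genes 5 had negative values, with a median of -0.08, and 0 were called by limma (PYGB and PYGL at an unadjusted p below 0.05). Over all genes, 48.6% had positive values, 1.22% were called and 18.0% had an unadjusted p below 0.05.

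The non-oxidative enzymes of the pentose phosphate pathway had values near 0. TKT, transketolase, had log2 intensities of 10.50 and 10.39 in untreated cells against 10.59 and 10.47 after TGF-beta, a log2 fold change of 0.08 ± 0.11 (SE). TALDO1, transaldolase, stood at 12.57 and 12.44 against 12.57 and 12.56 (0.06 ± 0.11). The groups overlapped for both.

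Of the hypoxia genes, 0 of 5 were called by limma (2 at an unadjusted p under 0.05, both higher). Among all genes 1.22% were called and 9.35% were higher at an unadjusted p under 0.05. ADM, which encodes the vasodilator peptide adrenomedullin, had log2 intensities of 8.45 and 8.23 in untreated cells against 9.07 and 8.91 after TGF-beta. Both TGF-beta arrays lay higher, and the log2 fold change was 0.65 ± 0.12 (SE, 1.57-fold), with an adjusted p of 0.0553. ADM passed where probe sets ending in _s_at or _x_at were left out (adjusted p = 0.0415). With the replicate number as a block it also passed (adjusted p = 0.000274), in a fit that called 1229 genes instead of 149. Over the alternatives, apart from the fit with the replicate number as a block, its adjusted p ranged from 0.0198 to 0.354. NDRG1, a hypoxia- and differentiation-linked protein, stood at 7.78 and 8.25 against 8.45 and 8.55, a value of 0.49 ± 0.16 (adjusted p = 0.175). Here the untreated arrays were far apart, and the value was 0.25 without the first of them and 0.72 without the second (adjusted p of 0.394 and 0.0224).

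VEGFA, the main growth factor of blood vessels, stood at 9.62 and 10.02 in untreated cells against 10.02 and 10.25 after TGF-beta. The second untreated array nearly equalled the first TGF-beta array, and the log2 fold change was 0.31 ± 0.16 (SE, adjusted p = 0.347). All 4 probe sets of VEGFA gave positive values, from 0.17 to 0.31. HIF1A itself gave -0.11 ± 0.11 with overlapping groups; its activity is set largely by protein stability, which arrays do not measure. BNIP3, which marks mitochondria for removal, stood at 11.78 and 11.66 against 11.65 and 11.42, a value of -0.19 ± 0.12, with -0.10 ± 0.10 from the other probe set. The hypoxia genes thus had values on both sides of 0, with 3 of 5 positive.

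Isoenzymes of the same step can be set against each other on every array. This removes only a log2 shift that both genes have on that array. The log2 ratio of PYGB to PYGL, relative to its mean in untreated cells, was 0.10 and -0.10 on the untreated arrays and 1.20 and 1.01 after TGF-beta, a shift of 1.11. The ratio of HK2 to HK1 was 0.02 and -0.02 against 0.84 and 0.83. PFKFB3 against PFKFB2 was -0.07 and 0.07 against 0.71 and 0.77, and the ratios of PFKFB3 to PFKFB1 and PFKFB4 shifted by 1.13 and 0.84. In each of these pairs the groups stood apart by more than the spread within either group. The ratio of PCK2 to PCK1 shifted by -0.60 and that of ENO1 to ENO2 by 0.64, in pairs whose second gene was dim. HK1, PFKFB1, PFKFB4, PKLR and GYS2, which stand second in other ratios given here, were dim as well. By contrast the ratio of LDHA to LDHB was -0.51 and 0.51 on the untreated arrays and 0.17 and 0.12 after TGF-beta, so that the groups overlapped. PKM to PKLR shifted by -0.04 with overlapping groups. GYS1 to GYS2 shifted by 0.11, and its groups did not overlap. There are 17 such pairs among the genes measured, and the groups did not overlap in 12 of them. Many pairs share a gene, as the ratios of PFKFB3, the called gene, do. With 2 arrays against 2 an exact two-sided permutation test cannot give a p below 0.333, so the ratios are given as values. A shift of a ratio shows unequal change of the pair, and not which gene moved.

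**Figure D3:**
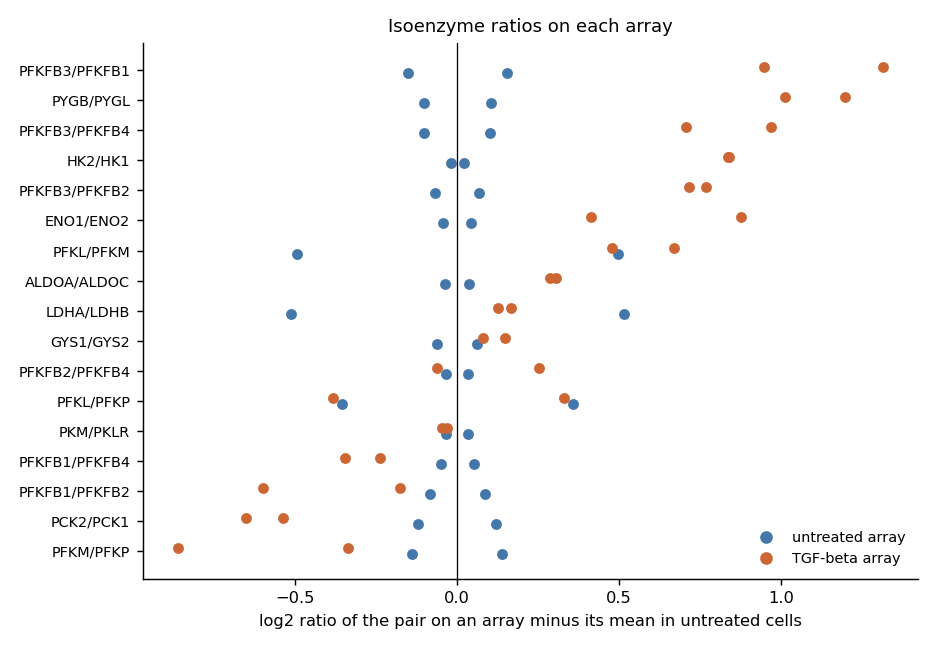
Log2 ratio of 2 isoenzymes on each array, minus the mean of that ratio in untreated cells (horizontal axis), with untreated arrays in blue and TGF-beta arrays in orange. PFKFB3/PFKFB1 and PYGB/PYGL, at shifts of 1.13 and 1.11, stand at the top with separated groups, whereas the untreated arrays of LDHA/LDHB and PFKL/PFKM span both sides. PFKFB1 was dim.

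Several probe sets were available for 14 of the 40 genes, 35 probe sets in all. In 10 of the 14 all probe sets had the same sign, and in GAPDH, LDHB, PFKFB2 and PKM they did not. Of the 61 probe sets of the 40 genes, 1 passed in a fit over all 19724 probe sets that name 1 gene, that of PFKFB3, against 0.887% of all of them.

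**Figure D4:**
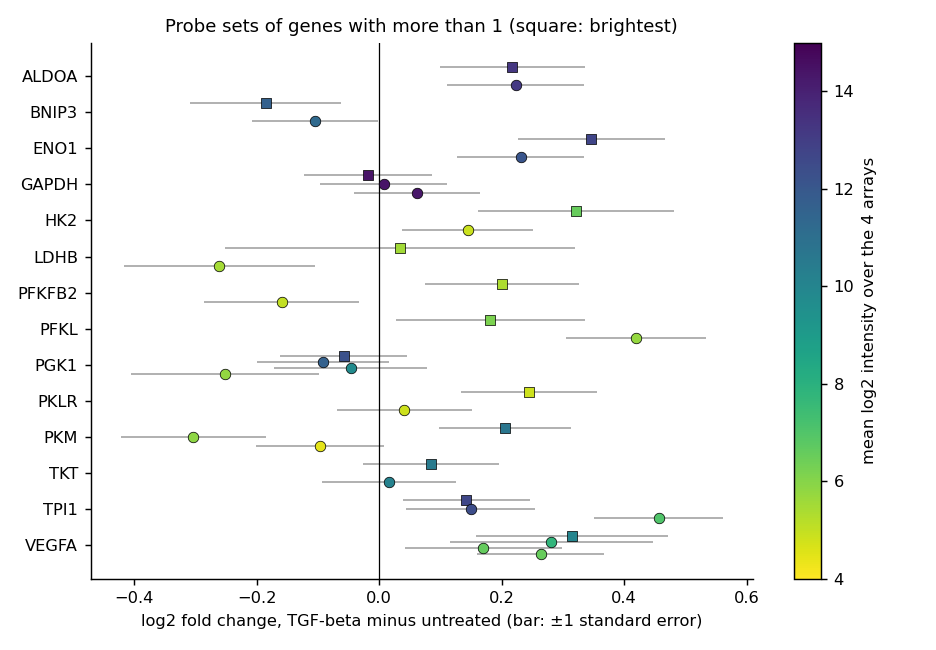
Log2 fold change (TGF-beta minus untreated) with 1 standard error of every probe set of the 14 genes that have more than 1, with the brightest as a square and the mean log2 intensity as the colour. The 4 probe sets of VEGFA lie between 0.17 and 0.31, while those of PKM lie on both sides of 0 (0.20, -0.30 and -0.10).

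Other genes of the same pathways, from a list of 100 of which 87 were measured, gave 0 higher and 2 lower calls, 2.30% against the 1.22% of all genes. Before adjustment 9 were higher and 15 lower at p under 0.05, which is 27.6% of the 87, against 18.0% of all genes (9.35% higher and 8.60% lower). TXNIP, a target of the glucose-sensing factor MLXIPL and a brake on glucose uptake, had log2 intensities of 9.36 and 9.10 in untreated cells against 7.62 and 7.21 after TGF-beta. It fell by 1.82 ± 0.16 (log2, SE), the lowest value among the 12165 genes, with an adjusted p of 0.0101 by limma, and its other probe sets gave -1.91 and -1.62. STC2, stanniocalcin 2, fell by 1.04 ± 0.13 (adjusted p = 0.0256), with a smaller value from its other probe set (-0.27 ± 0.17). MLXIPL and its partner MLX gave -0.12 ± 0.14 and 0.07 ± 0.10.

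Neither call held without a TGF-beta array. For TXNIP the adjusted p was 0.155 without the first and 0.120 without the second, and for STC2 it was 0.170 and 0.197.

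Among transporters, SLC2A8, an intracellular sugar transporter, had a larger value than PFKFB3 but a wider spread, at 6.90 and 6.20 in untreated cells against 7.69 and 7.44 (1.01 ± 0.22, SE, adjusted p = 0.0722). SLC2A1, the transporter that tumour cells and hypoxia raise, gave 0.19 ± 0.10, and its dimmer probe set gave -0.18 ± 0.11. SLC16A7, a carrier of pyruvate and lactate, stood at 9.59 and 9.61 against 9.15 and 9.12 (-0.47 ± 0.10, adjusted p = 0.0728). SLC2A2, the liver transporter, was dim at 4.47 to 4.55. Of the 7 transport genes none passed, with SLC2A8 higher and SLC16A7 lower at an unadjusted p below 0.05. That level was reached by 9.35% of all genes in the higher and 8.60% in the lower direction.

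The enzymes beside those above also had values in both directions. Several reached 0.3 in size, and none of those named here was called. ENO3, the muscle enolase, gave 0.52 ± 0.12 (SE, adjusted p = 0.0882), TIGAR, which breaks down fructose 2,6-bisphosphate, gave 0.34 ± 0.12 and BPGM, which makes 2,3-bisphosphoglycerate, gave -0.37 ± 0.14. PC, pyruvate carboxylase, the first step of gluconeogenesis from pyruvate, gave 0.46 ± 0.12 (adjusted p = 0.0991), opposite in sign to PCK2. Phosphorylase kinase, which activates glycogen phosphorylase, had subunits on both sides, with PHKB at -0.38 ± 0.11, PHKA1 at -0.54 ± 0.16 and PHKA2 at 0.37 ± 0.15. In the pentose phosphate pathway, RPE, the ribulose phosphate epimerase, stood at 9.85 and 9.67 against 9.12 and 9.32 (-0.54 ± 0.12, adjusted p = 0.0774). RBKS, ribokinase, gave -0.47 ± 0.10 (adjusted p = 0.0722), and H6PD and PGLS, of the oxidative branch, gave 0.15 ± 0.10 and 0.10 ± 0.11. Of the pyruvate dehydrogenase kinases, which hold pyruvate out of the citric acid cycle, 0 of 4 passed by limma (0 at an unadjusted p under 0.05), with PDK3 at -0.21 ± 0.11. GFPT1, the entry enzyme of hexosamine synthesis, gave -0.30 ± 0.11 (adjusted p = 0.212).

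The 22 further hypoxia targets had 1 call, STC2, and a median log2 fold change of -0.17, with 8 positive and 14 negative values, where 48.6% of all genes were positive. Before adjustment 7 of the 22 were lower and 1 higher at p under 0.05, against 8.60% and 9.35% of all genes. The lower ones were STC2, MXI1 (a MYC antagonist, -0.56 ± 0.13, SE, adjusted p = 0.0777), DDIT4 (an mTOR inhibitor, -0.48 ± 0.11), BNIP3L (a mitophagy receptor, -0.36 ± 0.11), KDM3A, P4HA1 and AK4. The higher one was PLOD1, a collagen lysyl hydroxylase, at 0.36 ± 0.10. Of the genes that control the factor, EGLN1, the prolyl hydroxylase that marks HIF1A for destruction, stood at 9.37 and 9.93 in untreated cells against 10.24 and 10.15 after TGF-beta (0.54 ± 0.18, adjusted p = 0.175), and EPAS1 (HIF-2 alpha) gave 0.19 ± 0.17.

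**Figure D5:**
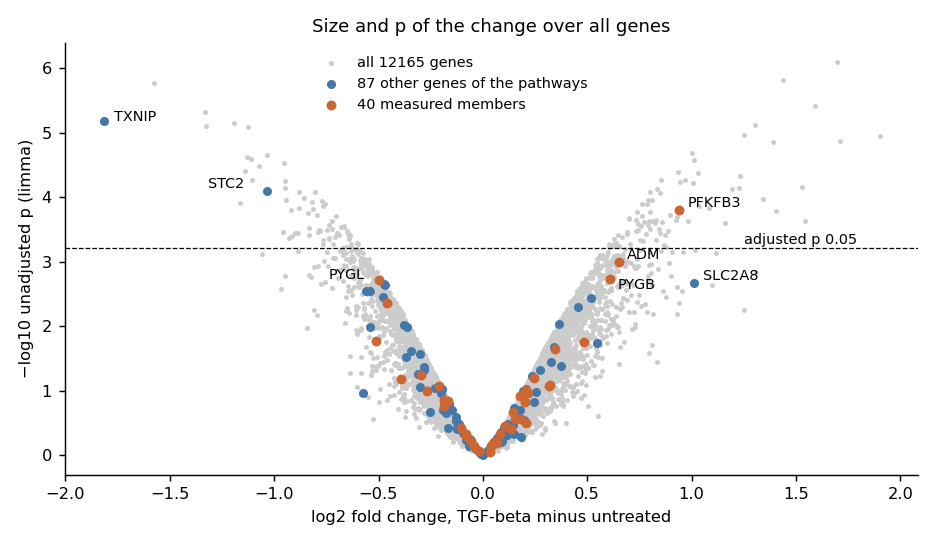
Log2 fold change (TGF-beta minus untreated, horizontal axis) against -log10 of limma's unadjusted p for all 12165 genes (grey), the 87 other genes of the pathways (blue) and the 40 genes described here (orange), with the dashed line at an adjusted p of 0.05. PFKFB3, TXNIP and STC2 lie above the line, ADM just below it at an adjusted p of 0.0553, and SLC2A8 lies below it at a log2 fold change of 1.01.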

How the data were processed

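RNA of 4 Huh-7 samples was measured on Affymetrix arrays, 2 untreated and 2 treated with TGF-beta. The authors deposited 1 linear intensity per probe set and array. The affy package is named in the submitters' processing notes; the summary method, background correction and genome build were not given in the sources used here. Quartiles were nearly equal between arrays, so no scaling was added and log2 was taken with no offset. Precision is limited by the number of arrays.

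Of 22215 probe sets, 19724 name 1 gene in the platform annotation, which can be old, 568 name several and 1923 none. A current symbol was found by Entrez number in a RefSeq table of GRCh38.p14 for 19707. The brightest probe set stands for each of 12165 genes. The genes of interest and all lists were chosen with earlier results of these data known.

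The groups were compared with limma 3.58.1 in R 4.3.3 (lmFit and eBayes, 7.41 degrees of freedom per gene). Genes were named by these rules: every measured gene of the list, with values on every array for those at an unadjusted p under 0.05; of the other pathway genes, those called and per role the smallest p. Any other gene given was picked with its values in view, as were the isoenzyme pairs. The fit was tested on simulated data with 12165 genes in 20 runs, where 5.90% of genes with a simulated log2 change of 0.5 and 87.6% of those with 1 were found, with 4.53% false calls. Alternatives covered normalization, offset, filter, probe set choice, prior, replicate number and leaving out each array. Plots used matplotlib 3.10.9 in Python 3.11.15.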

Additional observations from a re-analysis of the deposited data

How the results depend on the processing

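With 2 arrays a group, changes of 0.5 on the log2 scale were mostly below what the fit can call, and dim genes have little room to fall. PFKFB3 kept its call under quantile normalization (adjusted p = 0.0484), median centring, the offset of 16, the filter on dim genes, the mean of all probe sets, the intensity trend and the replicate block, and lost it without either TGF-beta array; it has no value without _s_at and _x_at probe sets. No gene of the list with an absolute log2 fold change of 0.3 or more changed sign under any alternative run. Where the text gives no cause for a move, the cause was not tested.

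Of all genes, 149 were called, 80 higher and 69 lower. Quantile normalization gave 62 (32 and 30), the filter on dim genes, which leaves 9124 genes, 89 (53 and 36), and the intensity trend 616 (308 and 308). Leaving out _s_at and _x_at probe sets, which leaves 8507 genes, gave 222 (116 and 106). Without 1 array the count ranged from 0 to 523 (0 to 324 higher, 0 to 199 lower). Of the listed genes 1 was called; the intensity trend called 6 (ADM, ENO1, LDHA, PFKFB3, PYGB and PYGL) and leaving out 1 array 0 to 5. Of the other pathway genes 2 were called, 7 with the trend and 0 to 6 without 1 array. The arrays' replicate numbers showed no sign of pairing: deviations of same-numbered arrays correlated at 0.01 over genes. With 2 arrays a group this is a single value, which cannot tell whether same-numbered arrays were handled together. With the replicate number as a block, 1229 genes were called (686 and 543), 7 of the listed genes and 13 of the other pathway genes. The median log2 fold change of 0.062 became 0.037 with median centring, 0.084 over the 31 genes left by the filter, 0.041 with the mean of all probe sets and -0.063 without _s_at and _x_at probe sets, and ranged from -0.019 to 0.10 without 1 array.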
